A study of Mus musculus with 9 samples.

Results

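Tbx5 and 7 other genes known for dorsal-ventral patterning of the eye were followed across the choroid (CH), the retinal pigment epithelium (RPE) and the photoreceptors (PR) of the mouse. The other genes were Tbx2, Tbx3, Vax1, Vax2, Aldh1a1, Aldh1a2 and Aldh1a3. They were taken by symbol from the gene name column of the arrays, which gave 9 probes for the 8 genes, out of 39429 probes of 31709 genes. The measure that is described here, the log2 ratio on these arrays, was known when the genes were chosen. Their levels and differences are therefore a description without a test, and no p-value is given for them.

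In the embryonic eye, Bmp4 signalling marks the dorsal side and turns on the T-box transcription factors Tbx5, Tbx2 and Tbx3. Sonic hedgehog marks the ventral side, where the homeobox genes Vax1 and Vax2 are active. The 3 Aldh1a genes encode retinaldehyde dehydrogenases, which make retinoic acid, and each has its own place in the eye: Aldh1a1 in the dorsal retina, Aldh1a3 in the ventral retina and Aldh1a2 mainly in the mesenchyme around the eye. In the adult, retinoids also feed the visual cycle between the RPE and the PR.

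Every tissue had 3 samples, each laser dissected from a whole eye of a female C57BL/6 mouse (J strain by the methods), so dorsal and ventral parts of an eye were not separated. The labels give an age of 6 months with a range of 2 weeks, and the methods of the study give an age that is a month lower. The sources do not say whether the eyes came from different animals, and p-values then measure the spread between these samples. Amplified RNA of the tissue was labelled with Cy5 and hybridised with a Cy3-labelled reference, the same for all arrays, made from RNA of the mouse choroid and RPE, on 9 dual-colour Agilent arrays with the dyes the same way round. A value of 0 on the log2(Cy5/Cy3) scale is thus the level of that reference. The RPE had been removed before the choroid was dissected, according to the methods.

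A probe was called when the fold change (FC) was above 2.5 and the limma p-value, adjusted by Benjamini-Hochberg (B-H) over all probes, was below 0.01. The 9 arrays lay on 3 slides. Slide 1 held PR 1 and PR 3 and no other tissue, slide 2 held CH 1, CH 3, RPE 1 and RPE 3, and slide 3 held replicate 2 of each tissue. Between 62.1% and 71.2% of the probes were well above background in Cy5 on 8 of the arrays, against 91.7% on RPE 2. Of all called probes, 10.7% were higher in the RPE in the comparison with the CH, 66.3% in the comparison with the PR, and 65.2% were higher in the CH than the PR. The first share was 1.10% with median centring (13 probes higher in the RPE and 1169 in the CH, against 73 and 611) and 5.93% in the series table. With the log ratio of the scanner software the shares were 8.19%, 54.3% and 53.2%. The median difference of all probes was 0.04 for RPE minus CH, -0.01 for RPE minus PR and -0.06 for CH minus PR.

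The probes are 60 bases long, and each member other than Vax1 was read by 1 probe in 1 spot. Stretches of 30 bases are shown for the probes that the differences below rest on, as the scanner files give them. Capitals mark a GT repeat in the Vax2 probe, whose signal by slide is given with that gene, and the word AATAAA in the Aldh1a3 probe. AATAAA is the word of the polyadenylation signal, but the place of the probe in the transcript was not annotated. It is held by 12.6% of all probes, among them probes of Tbx2, Vax1 and Vax2, though not within the stretches shown for Tbx2 and Vax2.
Tbx5, bases 1 to 30: aaatacctacctccgtcatgtgagatgtct
Tbx2, bases 1 to 30: tttttgctccagagggagaacgaagcgaga
Tbx3, bases 1 to 30: ctttatggtgttttggattggtgtactgag
Vax2, bases 1 to 30: GTGTGTGTGTctgagtatgtatgtgtcact
Aldh1a2, bases 1 to 30: aaccagctagctcccttcaacccacagtat
Aldh1a3, bases 31 to 60: gttcagcaatgaaaaAATAAAgttggacac

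Tbx5 (NM_011537, probe at chr5:120334087-120334146 on the plus strand of mm9) was the member with its highest level in the RPE. Its log2(Cy5/Cy3) was 0.41, 0.47 and 0.68 on the RPE arrays, -0.60, -1.01 and -1.79 on the CH arrays, and -1.45, -0.87 and -1.33 on the PR arrays. All 3 RPE arrays lay above the reference and above the 6 arrays of the other tissues, which all lay below the reference. In such tissue samples, fewer cells of a type and less RNA per cell cannot be told apart. The RPE arrays averaged 0.52 ± 0.14 (SD, n = 3), the CH arrays -1.13 ± 0.60 and the PR arrays -1.22 ± 0.30. As a signal over local background in Cy5 before normalization, Tbx5 read 2524 to 3722 in the RPE, 437 to 1241 in the CH and 432 to 769 in the PR. The Cy3 signal of the same spots lay between 948 and 1433 on all 9 arrays.

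The difference of Tbx5 was 1.65 on the log2 scale for RPE minus CH (SE 0.27), an FC of 3.14. For RPE minus PR it was 1.73 (SE 0.27), an FC of 3.32. Tbx5 met both thresholds in each of these comparisons, which share the RPE arrays. The CH and the PR could not be ordered, since their difference of 0.08 (SE 0.27) was smaller than the SD within either tissue. An arrangement with all RPE arrays above all CH and PR arrays was found for 8.48% of the 39429 probes.

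The difference of Tbx5 between the RPE and the CH was 1.74 within slide 2 and 1.48 within slide 3. Without RPE 2, the array with the high share of probes above background, it was 1.68. Of all settings it was lowest without CH 3, the CH array with the lowest Tbx5 level, at 1.33 (SE 0.19). That value lay just above the FC threshold. The difference was highest without CH 1, at 1.92, and was 1.49 with median centring. Tbx5 was called without each of these arrays and with median centring. The call against the CH was lost without RPE 3, where the difference was 1.57, and in the log ratio of the scanner software, the Cy5 channel alone and the series table of the authors, where the differences were 1.87, 1.80 and 1.83. The difference between the RPE and the PR was 1.34 within slide 3 and 1.43 with slide as a block (SE 0.42), and with that block Tbx5 was not called.

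**Figure D1:**
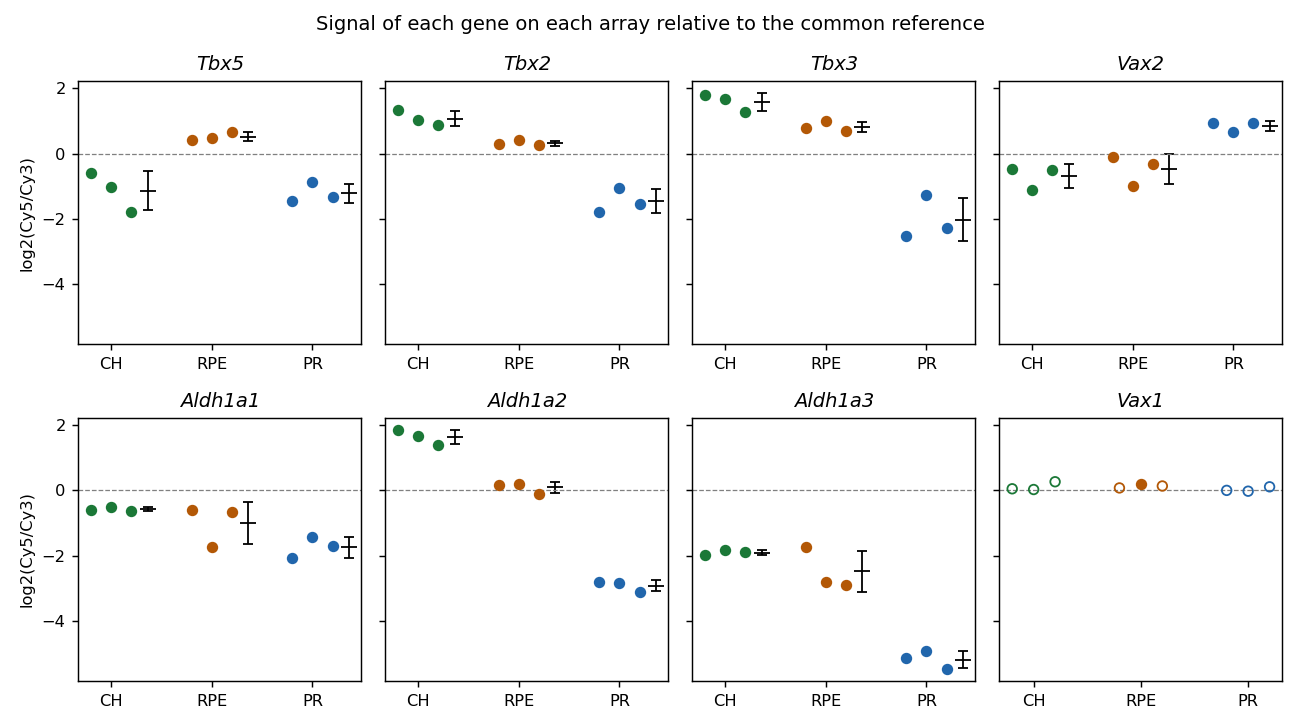
Log2(Cy5/Cy3) of the reported probe of each gene (vertical axis, 0 is the common reference) on the CH, RPE and PR arrays (points from left to right are replicates 1 to 3). Open points are not well above background in Cy5, and black bars are the mean and the SD of 3 arrays. Tbx5 is highest on the RPE arrays, Tbx2, Tbx3 and Aldh1a2 step down from the CH to the RPE to the PR, and Vax2 is highest on the PR arrays.

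The genes whose pattern over the 9 arrays was most like that of Tbx5 were Ncbp2, Rpl7l1, Etfrf1, 1700084J12Rik and Tceal8. Their Pearson's r with Tbx5 was 0.986, 0.979, 0.979, 0.977 and 0.973, over 9 arrays and out of 21715 other genes well above background in at least 1 tissue. The arrays share the reference and fall into 3 tissues, so that r mostly measures a like order of the tissues. Ncbp2, a subunit of the nuclear cap-binding complex, differed by 0.83 between RPE and CH and by 1.00 between RPE and PR. The differences of the other 4 genes were between 0.67 and 1.14 against the CH and between 0.69 and 1.18 against the PR, all smaller than those of Tbx5. None of the 5 belongs to the pathway lists described below.

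The genes most like the other members were found in the same way over the 9 arrays. For Tbx2 they included Pard6g (r = 0.998) and Agrn (0.997), and for Tbx3 they were Kctd17 (0.999), Ubash3b (0.998) and Cd9 (0.998). For Aldh1a2 they were Ifi207, Cyp4b1 and Col14a1, a fibril-associated collagen (all 0.999), and for Aldh1a3 they included Ltbp1 (0.991). For Vax2 they were Zfp873 (0.988), Zfp444 (0.984) and Rbp3 (0.984), the retinoid-binding protein that PR release into the space between the PR and the RPE. The r values for Aldh1a1 were lower, with LOC100048871 (0.954), the transcript ENSMUST00000097276 (0.947) and Rps29 (0.941).

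**Figure D2:**
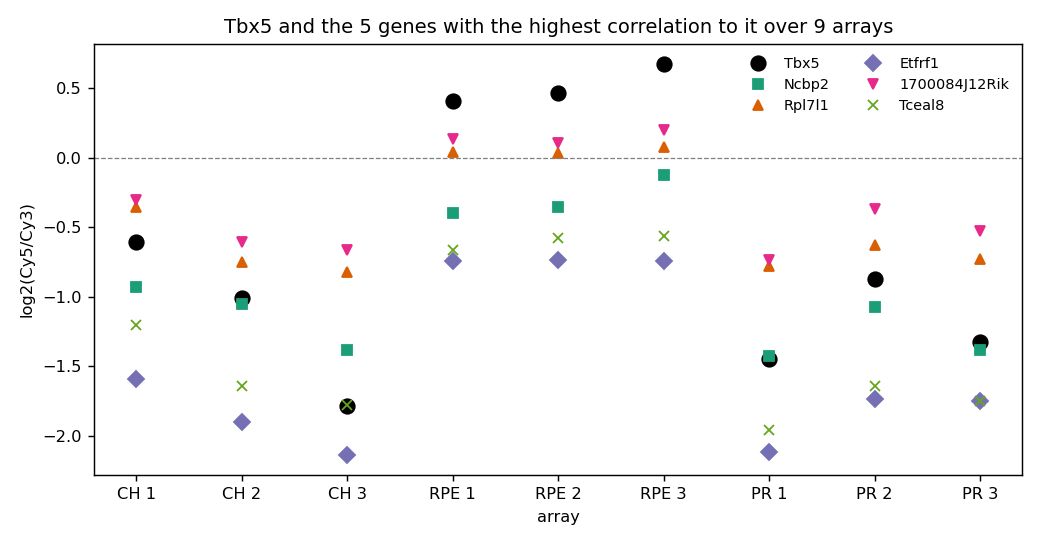
Log2(Cy5/Cy3) (vertical axis) of Tbx5 (black circles) and of the 5 genes most correlated with it, on each of the 9 arrays (horizontal axis, grouped by tissue). All 6 genes are highest on the RPE arrays, and Tbx5 has the widest range, from -1.79 on CH 3 to 0.68 on RPE 3.

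Tbx3, the neighbour of Tbx5, and Tbx2 are the other dorsal T-box genes, and both were highest in the CH. Tbx3 (probe at chr5:120134511-120134570, plus strand) read 1.78, 1.69 and 1.28 in the CH, 0.78, 0.99 and 0.71 in the RPE and -2.51, -1.27 and -2.29 in the PR. Tbx2 (chr11:85655391-85655450, plus strand) read 1.34, 1.02 and 0.87 in the CH, 0.30, 0.41 and 0.26 in the RPE and -1.79, -1.06 and -1.53 in the PR. For both genes the CH, RPE and PR arrays formed 3 steps without overlap, an order that 8.61% of all probes had.

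RPE minus CH was -0.76 for Tbx3 (SE 0.28) and -0.75 for Tbx2 (SE 0.18), and neither was called. With median centring the difference was -1.10 for each gene, and with slide as a block the SE was 0.14 for each. Neither gene was called in these settings. RPE minus PR was 2.85 for Tbx3 (SE 0.28), an FC of 7.21, and 1.78 for Tbx2 (SE 0.18), an FC of 3.44. CH minus PR was 3.61 for Tbx3 (SE 0.28), an FC of 12.2, and 2.53 for Tbx2 (SE 0.18), an FC of 5.79. Both genes were called against the PR from either side. Among the PR arrays, PR 2, on slide 3, read Tbx3 more than 1 log2 unit above PR 1 and PR 3. Within slide 3, RPE minus PR was 2.26 for Tbx3 and 1.47 for Tbx2, and CH minus PR was 2.96 and 2.08.

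The probes of Tbx5 and Tbx3 start 199.6 kb apart on chromosome 5, and Gm5563 is the measured gene between them. It was not well above background on any of the 9 arrays. Rbm19, the next measured gene beyond Tbx5 and an RNA-binding factor of ribosome assembly, differed by -0.03 between RPE and CH and by -0.25 between RPE and PR. Of the pair of T-box neighbours, Tbx5 thus had a positive difference between RPE and CH and Tbx3 a negative one.

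Vax2, a ventral homeobox gene, was highest in the PR (probe at chr6:83688239-83688298, plus strand). Its log2(Cy5/Cy3) was 0.93, 0.66 and 0.95 in the PR, -0.11, -0.98 and -0.31 in the RPE and -0.47, -1.10 and -0.49 in the CH. The 3 PR arrays lay above the reference and above all arrays of the other tissues, which overlapped each other. PR above both other tissues without overlap was a common arrangement, found for 25.0% of all probes. CH minus PR was -1.53 (SE 0.24), an FC of 2.90 that was called. RPE minus PR was -1.31 (SE 0.24), and its FC of 2.49 (2.485 before rounding) lay just under the threshold of 2.5. It passed with slide as a block, with median centring, with the scanner's log ratio, and without PR 2, RPE 1 or RPE 3. RPE minus CH was 0.22 (SE 0.24), within the SD of either tissue, which includes a difference between slides. It was 0.27 within slide 2 and 0.12 within slide 3, with an SE of 0.095 with slide as a block, and was not called. In the Cy5 channel alone and in the series table, CH minus PR was -1.91 and -1.96 and was not called.

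The replicate 2 arrays, on slide 3, had the lowest Vax2 level of each tissue. Both channels were lower there. In the CH and the RPE, the mean log2 signal on slide 3 minus that on slide 2 was -1.94 in Cy5 and -1.24 in Cy3. Both channels were at or below -1.24 for 2.71% of all probes. The Vax2 probe opens with the repeat GTGTGTGTGT, which 137 probes (0.347%) hold in this orientation. Over these 137 probes the median slide difference was -1.63 in Cy5 and -1.64 in Cy3, against 0.07 in both channels over all probes. At least 1 log2 unit was lost in both channels by 103 of the 136 with a value on both slides (75.7%), and by 1477 of 39188 such probes in all (3.77%). The 137 probes had a median slide difference of 0.10 in the ratio, and that of Vax2 was -0.70. For the 72 probes with the word of the other strand, ACACACACAC, the medians were -0.55 in Cy5 and -0.67 in Cy3. Of these, 29.2% were at least 1 log2 unit lower in both channels. In all these differences slide 3 stands for CH 2 and RPE 2 alone. Whether the repeat lowers the signal was not tested. Within slide 3, RPE minus PR of Vax2 was -1.64 and CH minus PR was -1.76.

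**Figure D3:**
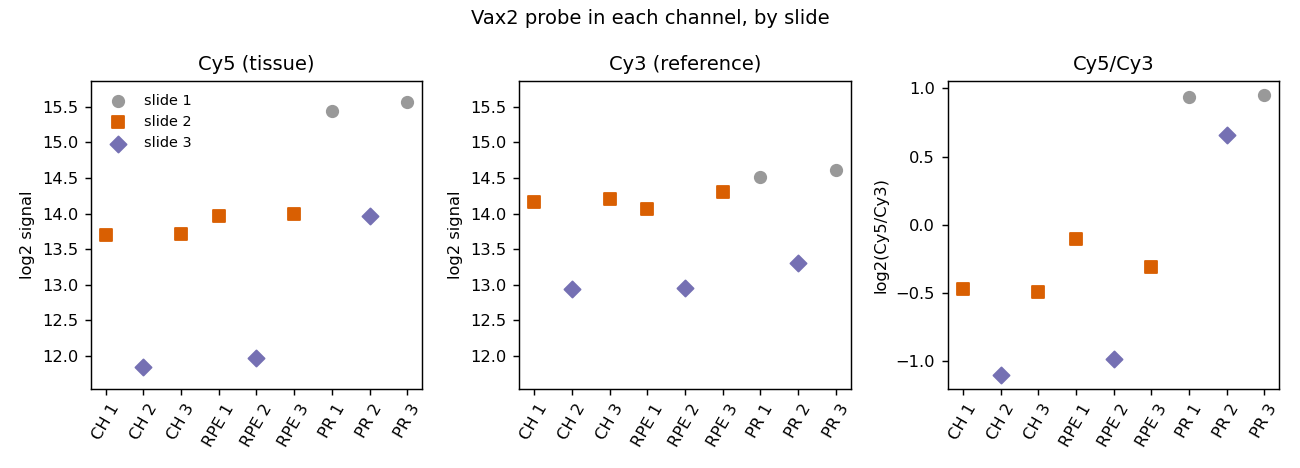
Log2 signal of the Vax2 probe in Cy5 and in Cy3 and its log2(Cy5/Cy3) (vertical axes) on each array (horizontal axes), with the slide shown by colour and marker. The 3 arrays of slide 3 are the lowest of their tissue in every panel, from 11.84 on CH 2 to 13.97 on PR 2 in Cy5, and the PR arrays have the highest ratios.

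Vax1, the other ventral homeobox gene, was not measured well enough to compare. Its 2 probes (chr19:59240677-59240736 and chr19:59240745-59240804, minus strand) were not well above background in Cy5 on any array other than RPE 2. That array stood alone in the same way for 13.5% of all probes. Their Cy5 signal over local background was between 35 and 187 on the other 8 arrays, and 590 and 1002 on RPE 2. No FC is given for Vax1.

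Aldh1a2, the retinaldehyde dehydrogenase of mesenchyme, had the widest range among tissue means of the 8 genes (NM_009022, probe at chr9:71143931-71143990, plus strand). It read 1.84, 1.67 and 1.41 in the CH, 0.18, 0.19 and -0.10 in the RPE and -2.81, -2.84 and -3.12 in the PR. The 3 tissues did not overlap, and the SD within each was at most 0.22. Aldh1a2 was called in all 3 comparisons. RPE minus CH was -1.55 (SE 0.14), an FC of 2.92, RPE minus PR was 3.01 (SE 0.14), an FC of 8.07, and CH minus PR was 4.56 (SE 0.14), an FC of 23.6. Within slides the difference between RPE and CH was -1.58 and -1.48.

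Aldh1a3, the ventral retinaldehyde dehydrogenase, was below the reference on all 9 arrays, as were 13.6% of all probes (NM_053080, probe at chr7:73535785-73535844, minus strand). It read -1.98, -1.84 and -1.88 in the CH, -1.75, -2.81 and -2.89 in the RPE and -5.14, -4.92 and -5.46 in the PR. The CH and RPE arrays overlapped and all lay above the PR arrays. RPE minus PR was 2.70 (SE 0.27), an FC of 6.48, and CH minus PR was 3.28 (SE 0.27), an FC of 9.69, and both were called. Both FCs rest on a low signal in the PR. Over local background in Cy5, Aldh1a3 read 190 to 415 there, still marked well above background, and 1704 to 5920 on the CH and RPE arrays. RPE minus CH was -0.58 (SE 0.27), less than the SD of 0.64 within the RPE. That difference and that SD rest on RPE 1, without which the difference was -0.95 (SE 0.16) and the CH and RPE arrays no longer overlapped. Without RPE 3 it was -0.38 (SE 0.28).

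Aldh1a1, the dorsal retinaldehyde dehydrogenase, was also below the reference on all 9 arrays and was called in no comparison (NM_013467, probe at chr19:20717764-20717823, plus strand). It read -0.60, -0.51 and -0.62 in the CH, -0.60, -1.73 and -0.66 in the RPE and -2.07, -1.44 and -1.70 in the PR. RPE 2 alone reached down into the range of the PR. With this array, RPE minus CH was -0.42 (SE 0.28) and RPE minus PR 0.74 (SE 0.28), and without it they were -0.05 and 1.11. Within slide 3, which held RPE 2, they were -1.22 and -0.29. CH minus PR was 1.16 (SE 0.28), an FC of 2.23, without overlap of the arrays, and 0.53 with slide as a block (SE 0.37).

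Promoter sequence was at hand for 3 of the 8 genes, Aldh1a1, Aldh1a2 and Vax1, from RefSeq on GRCm38.p6, and not for Tbx5, Tbx2, Tbx3, Vax2 and Aldh1a3. The 250 bases before the start of Aldh1a2 and before 2 starts of Aldh1a1 are shown, because 3 of the members are T-box factors and these enzymes share the retinoic acid step. The T-box site AGGTGTGA (TCACACCT on the other strand) was searched on both strands, with the shorter core AGGTGT that lies within it. The matches are in capitals, and the core reads ACACCT on the other strand. Of all 32851 such windows, 1.12% hold the longer word and 11.8% the core.
Aldh1a2, chr9:71215539-71215788, plus strand: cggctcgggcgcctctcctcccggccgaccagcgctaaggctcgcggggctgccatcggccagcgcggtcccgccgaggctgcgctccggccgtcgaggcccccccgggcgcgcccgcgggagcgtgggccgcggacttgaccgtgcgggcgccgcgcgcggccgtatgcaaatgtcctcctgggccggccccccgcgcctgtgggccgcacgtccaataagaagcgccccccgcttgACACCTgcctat
Aldh1a1, distal start, chr19:20492333-20492582, plus strand: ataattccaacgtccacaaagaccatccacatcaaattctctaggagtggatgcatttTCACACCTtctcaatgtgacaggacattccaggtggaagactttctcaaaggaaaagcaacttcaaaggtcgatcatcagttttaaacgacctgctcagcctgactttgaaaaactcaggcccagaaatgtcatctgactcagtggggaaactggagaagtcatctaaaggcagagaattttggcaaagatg
Aldh1a1, proximal start, chr19:20601718-20601967, plus strand: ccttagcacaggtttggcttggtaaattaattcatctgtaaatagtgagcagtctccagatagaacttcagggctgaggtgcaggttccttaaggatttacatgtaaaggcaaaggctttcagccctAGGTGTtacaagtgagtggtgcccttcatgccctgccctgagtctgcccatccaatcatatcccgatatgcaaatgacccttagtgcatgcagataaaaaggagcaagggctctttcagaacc

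The Aldh1a2 window has a GC content of 77.6% with 40 CpG dinucleotides and holds the core once, from position -12, where -1 is the last base before the start. The Aldh1a1 windows have a GC content of 42.8% and 46.4%, with 3 and 1 CpG dinucleotides, against a median of 52.4% over all windows. The longer word begins at position -192 of the distal start of Aldh1a1, and the core at position -123 of the proximal start. The Vax1 window holds neither. These matches describe the letters, and binding was not measured here.

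Of the 8 genes, 2 were called between the RPE and the CH (all probes, either direction: 1.73%). Tbx5 was higher in the RPE (all probes: 0.185%) and Aldh1a2 was higher in the CH (all probes: 1.55%). The arrays did not overlap for 1 gene higher in the RPE (all probes: 20.6%) and for 3 higher in the CH (all probes: 17.8%), namely Tbx2, Tbx3 and Aldh1a2. Between the RPE and the PR, 5 genes were called (all probes, either direction: 15.5%), all higher in the RPE (all probes: 10.2%, and 5.22% higher in the PR), namely Tbx5, Tbx2, Tbx3, Aldh1a2 and Aldh1a3. The arrays of these 5 did not overlap (all probes: 28.4%), and Vax2 was higher in the PR without overlap (all probes: 29.7%). Between the CH and the PR, 5 genes were called (all probes, either direction: 18.4%), of which 4 were higher in the CH (all probes: 12.0%) and Vax2 was higher in the PR (all probes: 6.40%). Without overlap, 5 genes were higher in the CH (all probes: 27.6%) and Vax2 in the PR (all probes: 33.8%). The median difference of the 8 genes was -0.50 for RPE minus CH, 1.76 for RPE minus PR and 1.85 for CH minus PR. As the genes were chosen with these values known, nothing is read from the counts. The means fell in the order CH, RPE, PR for Tbx2, Tbx3 and the 3 Aldh1a genes, and not for Tbx5 and Vax2. The CH and RPE arrays of Aldh1a1 and Aldh1a3 overlapped, and RPE minus CH of Aldh1a1 was -0.42 with RPE 2 and -0.05 without it.

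**Figure D4:**
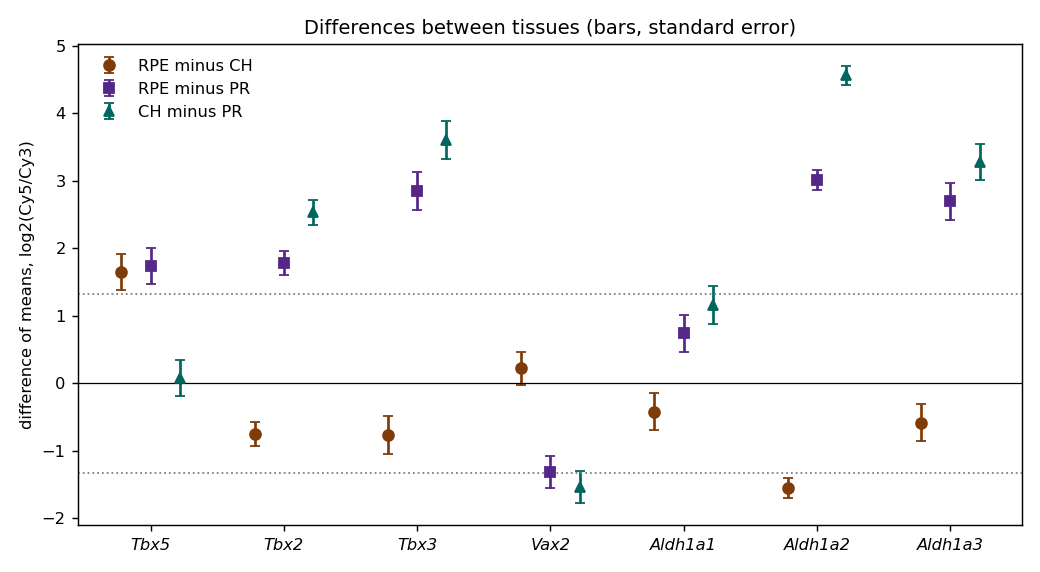
Difference of tissue means in log2(Cy5/Cy3) (vertical axis) for the 7 genes measured above background (horizontal axis), with the standard error of the limma fit as bars and dotted lines at an FC of 2.5. The Tbx5 difference between RPE and CH, at 1.65, is the only positive one past the line in that comparison, and Vax2 has negative differences against the PR.

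Other genes of the pathways were counted in lists that do not include the 8 members, with the same calls. The lists were chosen with earlier results of these data known. Their counts and p-values therefore describe these arrays and are no independent test. In BMP signalling, the dorsal signal of the eye, 1 of 22 genes was higher in the RPE than the CH (all probes: 0.185%) and none was lower (all probes: 1.55%). Against the PR, 11 were higher in the RPE (all probes: 10.2%) and 10 in the CH (all probes: 12.0%). Bmp4, the dorsal ligand, was the one called against the CH, by 1.46 (SE 0.25, adjusted p = 0.0032, limma), and against the PR by 5.10 (adjusted p = 1.53e-07). Its other probe reached 0.99 against the CH, and the call against the CH was lost in 8 of 19 other settings, among them those without CH 1, CH 2, RPE 2 or RPE 3, with differences between 0.82 and 1.72. Bmp2, a related ligand, was higher in the RPE than the PR by 4.98 (adjusted p = 8.16e-08). Id1 and Id2, which are targets of the pathway, were higher in the CH than the PR by 5.26 and 4.65 (adjusted p = 3.72e-09 and 1.31e-07). With median centring in place of loess, no gene of the list was called higher in the RPE than the CH and 1 was called lower. At an unadjusted p below 0.05, 5 genes were higher and 7 lower in the RPE than the CH. The share of all probes at that unadjusted p is not given, here or for the lists below. The median of the list was -0.06 for RPE minus CH, 1.18 for RPE minus PR and 1.00 for CH minus PR.

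Of 20 genes of retinoic acid supply, breakdown and reception, 2 were higher in the RPE than the CH (all probes: 0.185%). Against the PR, 8 were higher in the RPE (all probes: 10.2%) and 9 in the CH (all probes: 12.0%). None was called in the opposite direction in any comparison. With median centring, 1 gene was higher and 1 lower in the RPE against the CH. Rdh10, which makes the retinaldehyde that the Aldh1a enzymes use, was 1.99 higher in the RPE than the CH (SE 0.28, adjusted p = 0.00114, limma). That call held with every array left out in turn and was lost in the Cy5 channel alone and in the series table, with differences between 1.14 and 2.36 over the settings. Lrat, which esterifies retinol, differed by 1.90 (SE 0.31, adjusted p = 0.00223), was saturated on 1 array, and was not called in 7 of 19 other settings, including those without CH 2, RPE 1 or RPE 2, with differences between 0.63 and 2.27. Against the PR, Lrat was 7.35 and Stra6, a receptor for retinol uptake, 6.15 higher in the RPE (adjusted p = 5.07e-08 and 1.92e-07). The difference of Lrat from the PR lay between 5.12 and 7.54 in the other settings and was called in all 19. In the CH, Lrat was 5.45 and Stra6 4.86 higher than the PR (adjusted p = 2.43e-07 and 6.9e-07). The list medians were 0.14, 0.62 and 1.19 in the order of the comparisons above.

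Of 14 other T-box genes, 10 were well above background on all arrays of at least 1 tissue, and 2 were higher in the CH than the RPE (all probes: 1.55%). These were Tbx1, by 1.98 on the log2 scale (-1.98 for RPE minus CH, SE 0.14, adjusted p = 6.5e-05, limma), and Tbx4, the closest relative of Tbx5 (-2.16, SE 0.17, adjusted p = 0.000105). Both calls held in all 19 other settings. None of the list was called higher in the RPE than the CH (all probes: 0.185%), and none was higher there at an unadjusted p below 0.05. With median centring, 3 were higher in the CH than the RPE. Against the PR, 3 were higher in the RPE (all probes: 10.2%) and 4 in the CH (all probes: 12.0%). Tbx1 exceeded the PR by 4.10 in the RPE and by 6.08 in the CH (adjusted p = 1.65e-08 and 2.2e-09). Tbx4 and Tbx18 were not well above background on any PR array. Tbx4 was at least 14.6-fold higher in the CH than the PR (adjusted p = 1.46e-08), and the level of Tbx18 in the RPE exceeded that in the PR at least 4.27-fold (adjusted p = 7.2e-07). A dye bias could enter these bounds, which use the Cy5 channel without a dye swap.

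Of 20 ventral eye and optic fissure genes, 1 was higher in the RPE than the CH, Otx2 (all probes: 0.185%), and 2 were lower, Gli1 and Cyp1b1 (all probes: 1.55%). Otx2, a transcription factor of the RPE and the PR, differed by 1.35 (SE 0.28, adjusted p = 0.00786, limma), and this call was lost in 15 of 19 other settings, including those that left out CH 1, CH 2 or any RPE or PR array, with differences between 0.67 and 1.73. Gli1, a target of hedgehog signalling, differed by -1.44 (SE 0.15, adjusted p = 0.000258), and that call held in all 19. Cyp1b1, a cytochrome P450 that can act on retinoids, differed by -1.35 (SE 0.18, adjusted p = 0.00103), and its call was lost in 5 of 19, including those without CH 2, RPE 2 or RPE 3. Against the PR, 10 genes of the list were higher in the RPE (all probes: 10.2%) and 11 in the CH (all probes: 12.0%). Among them, Mitf, a factor of pigment cells, was 4.07 higher in the RPE and 4.57 higher in the CH (adjusted p = 2.67e-08 and 8.87e-09). Nr2f1, a nuclear receptor, was 3.63 higher in the RPE (adjusted p = 2.74e-07), and Gli1 was 4.98 higher in the CH (adjusted p = 5.62e-09). Rax and Six6, homeobox genes of the retina, were higher in the PR than the CH, with CH minus PR at -3.08 and -1.62 (adjusted p = 2.24e-06 and 0.000251). Rax was also higher in the PR than the RPE, with RPE minus PR at -2.70 (adjusted p = 7.19e-06). The list medians were 0.09, 1.03 and 0.96.

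None of the 16 other aldehyde dehydrogenases was called by limma between the RPE and the CH (all probes, either direction: 1.73%). In that comparison, 5 were higher and 4 lower in the RPE at an unadjusted p below 0.05. Against the PR, 6 were higher in the RPE (all probes: 10.2%) and 6 in the CH (all probes: 12.0%). Aldh2, a mitochondrial enzyme, was 3.57 higher in the RPE and 2.83 higher in the CH than the PR (adjusted p = 1.32e-06 and 5.43e-06, limma). Aldh1l1, which acts in folate metabolism, was 3.06 and 2.58 higher (adjusted p = 3.76e-08 and 7.3e-08). The 8 B-class ephrins and Eph receptors are cell surface molecules that guide retinal axons along the dorsal-ventral axis. None was called between the RPE and the CH (all probes, either direction: 1.73%), with 3 lower in the RPE and 0 higher at an unadjusted p below 0.05. Against the PR, 3 were called higher in the RPE (all probes: 10.2%) and 3 in the CH (all probes: 12.0%). Ephb4 was 3.44 higher in the RPE and 3.97 higher in the CH than the PR (adjusted p = 1.69e-08 and 5.55e-09), and its other probe differed by 0.99 and 1.03. Efnb1 was 2.39 and 3.08 higher (adjusted p = 1.4e-05 and 1.84e-06). The cone opsins Opn1sw and Opn1mw, which run in opposite gradients along this axis in the mouse retina, were both higher in the PR than the RPE, with RPE minus PR at -3.15 and -3.54 (adjusted p = 2.76e-05 and 2.36e-08).

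**Figure D5:**
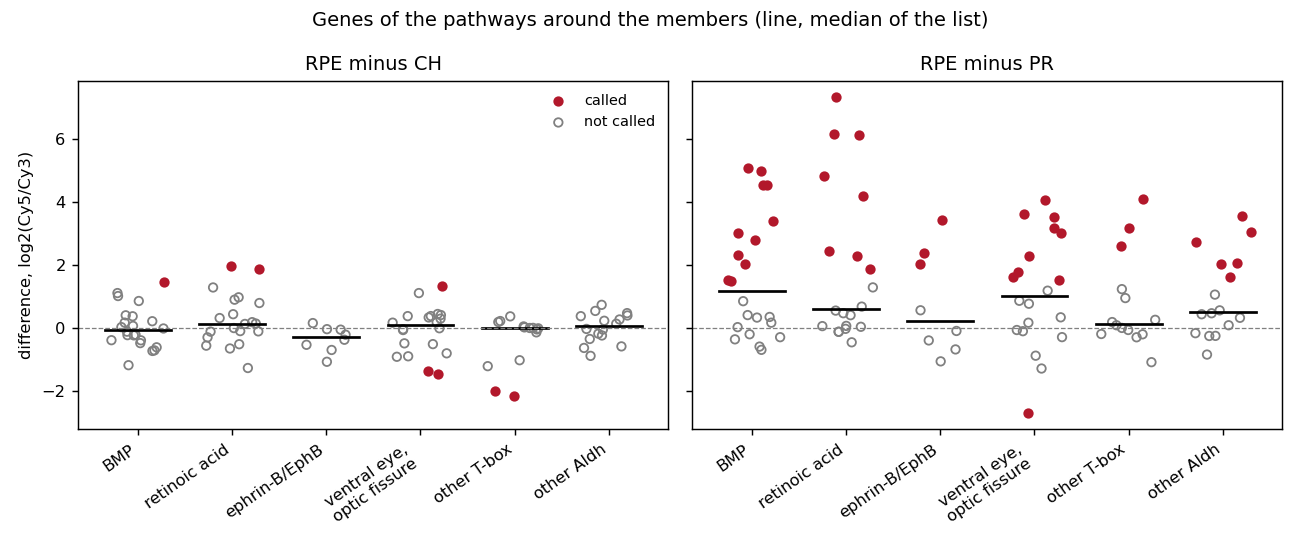
Difference in log2(Cy5/Cy3) (vertical axes) of each gene in 6 pathway lists (horizontal axes) for RPE minus CH on the left and RPE minus PR on the right, at the reported probe. Filled points were called, open points were not, and the line is the median of the list. Few genes are called between RPE and CH, from -2.16 for Tbx4 to 1.99 for Rdh10, and most called genes are higher in the RPE than the PR.

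Marker genes of cell types also differed between the tissues, and their part in these results was not tested. Of 9 RPE markers, 7 were called higher in the RPE than the CH, as Tbx5 was (all probes: 0.185%), and 1 with median centring in place of loess. CH minus PR of Tbx5 was 0.08, while these markers had a median of 3.90 there, with 8 of 9 called higher in the CH. Their summed Cy5 signal was 2244819 to 2447686 in the RPE, 1610181 to 2010312 in the CH and 297720 to 410864 in the PR, and 8 of the 9 were well above background on all arrays of each tissue. The 5 lens markers had differences between 0.94 and 1.74 for RPE minus CH, and none was called, nor passed an unadjusted p of 0.05. All 6 fibroblast and sclera markers were higher in the CH than the RPE, as was Aldh1a2 (all probes: 1.55%). Their summed signals were 904346 to 995581 in the CH, 277539 to 376265 in the RPE and 45724 to 59947 in the PR. Of 7 melanocyte markers, 3 were higher in the CH than the RPE, as were 2 of 7 smooth muscle and pericyte markers, 2 of 5 macrophage markers and 1 of 7 Muller glia markers. The macrophage list was split, with RPE minus CH from -1.77 to 0.53. At an unadjusted p below 0.05 (limma), 1 macrophage marker was higher and 4 were lower in the RPE. Their summed signals overlapped, at 90262 to 117255 in the RPE and 86150 to 102444 in the CH. Muller glia markers ran from -1.45 to 0.49 with a median of 0.16, and 3 were lower and 0 higher at that p. None of 8 endothelial, 9 inner retina and 6 skeletal muscle markers was called by limma between the RPE and the CH (all probes, either direction: 1.73%). At an unadjusted p below 0.05, 1 endothelial marker was higher in the CH, 1 inner retina marker was higher in the RPE and 2 in the CH, and 0 skeletal muscle markers passed. All 8 rod and 6 cone markers were higher in the PR than the RPE (all probes: 5.22%) and than the CH (all probes: 6.40%), as was Vax2 against the CH. The rod markers summed to 2356455 to 3554956 in the PR, to 936417 to 1207943 in the RPE and to 617271 to 954259 in the CH, and all 8 were well above background on every array.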

How the data were processed

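The members and gene lists were chosen with earlier results of these data known. The authors deposited the output of Agilent Feature Extraction 9.5.3.1 for 9 arrays, whose mean signals and median local backgrounds are intensity values as scanned and were the starting point. The deposited log ratio of the software is a log10 value. The series table of the authors holds log2 values of the Cy5 channel, with a normalization that is not given in the sources used here. The submitters' processing notes also name R 2.14.0 and limma.

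The background correction was normexp with an offset of 50, followed by loess normalization of log2(Cy5/Cy3) within arrays. Control spots were dropped, as were 228 to 586 spots per array that carried an outlier mark, and repeated spots of 1 probe were averaged. No member had a marked or saturated spot. In R 4.3.3, limma 3.58.1 fitted a mean per tissue to all 9 arrays, with moderation by empirical Bayes, B-H adjustment over 39429 probes and calls at an FC above 2.5 and an adjusted p below 0.01. Cy5 signals were also scaled between arrays (Aquantile) for the sums and bounds. Precision is limited by having 3 arrays per tissue.

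All members with all their probes are named. The reported probe of a gene is its brightest. From each pathway list and comparison, up to 4 called genes with the largest differences are named, 2 per direction, and for likeness the genes with the highest Pearson's r, some of which are not reported here. Names came from RefSeq (GRCm38.p6), matching 26055 probes by accession, 3195 by symbol and 930 by older symbol, and 9249 probes kept the name in the files. Positions are those of the files (mm9). Simulated arrays were used to check the fit. Figures were made with Python 3.11.15 and matplotlib 3.10.9.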

Additional observations from a re-analysis of the deposited data

How the results depend on the processing

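Among the 8 genes, 2 were called between the RPE and the CH, and 1 in the log ratio of the scanner software, in the Cy5 channel alone and in the series table. Leaving out each array in turn gave 1 or 2. Over all probes, 684 were called in that comparison, 1182 with median centring, 405 in the series table and 1706 at a fold change above 2. The difference of Tbx5 between the RPE and the PR, 1.73, was 1.43 with slide as a block and 1.34 within slide 3. The cause of these shifts was not tested. The other 190 values of the calls and of Tbx5 kept their direction where called and stayed within 1.5 times the count or within 1 SD. For the other genes and the lists, 428 values stayed within these limits and 38 moved, with no called difference of the other genes reversed. Counts of a list add both directions. Between the RPE and the CH, the BMP list thus kept a count of 1 with median centring, though that gene was lower in the RPE and not higher. The retinoic acid list kept a count of 2, with 1 higher and 1 lower in place of 2 higher. Samples with the same replicate number did not deviate together throughout, with correlations between -0.08 and 0.29, so that the numbers are not taken to pair the samples. With replicate number as a block, 2, 5 and 5 of the 8 genes were called, as without it, and the differences of Tbx5 were 1.65, 1.73 and 0.08. Calls over all probes were 691, 6111 and 7272 with this replicate block, against 684, 6098 and 7254 without it. Signal over background limits Vax1, and 1 slide holds PR arrays only, which limits every comparison with the PR.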
